A study of Glycine max with 6 samples.

Results

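Chromatin immunoprecipitation and sequencing (ChIP-seq) of the soybean protein GLYMA.04G093300 gave 64222 merged regions with a peak in at least 1 of 4 libraries, and 11956 of them held a peak in both libraries made with one antibody, Ab1, and in neither library made with the other, Ab2. These are called Ab1-only regions here, a name that stands for peak calls and not for the absence of binding. Peak intervals from the 4 lists were merged wherever they had 1 or more bases in common. The presence of Ab1 peaks, the absence of Ab2 peaks and all strength values of those peaks therefore belong to the choice and are given as description. The Ab1-only regions made up 18.6% of all merged regions (95% Wilson interval 18.3 to 18.9) and 31.8% (31.4 to 32.3) of the 37561 regions with a peak in both Ab1 libraries. Regions with a peak in all 4 libraries, called shared regions here, numbered 15473, or 24.1% of all.

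All samples were early maturation embryos of the soybean cultivar Williams 82, dissected from seeds 6 to 7 mm long and fixed with 1% formaldehyde, with no genetic change or treatment named in the labels. The labels name antibodies against peptides from residues 117 to 132 and 170 to 180 of the protein, and each antibody was used on 2 biological replicates. The antibodies appear as anti-peptide 1 (Ab1) and anti-peptide 2 (Ab2), and that these numbers follow the order of the residues is implied only. Total chromatin of 2 replicates, which received no antibody, served as input, and no input list was analysed here. How many embryos or plants went into a replicate is not given, and no precipitation with an unrelated antibody was analysed here. The peak names carry the tag HB22, which the labels do not explain.

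In ChIP-seq, proteins are crosslinked to DNA, the chromatin is sheared, and fragments attached to the protein of interest are pulled down and sequenced, so that fragments pile up around a bound site and the highest point of the pile, the summit, lies near it. An antibody raised against a peptide sees only that stretch of the protein, and a peak caller reports a site only when its pile-up passes a threshold over the background. A site seen with one antibody and missed with another can therefore differ in how the protein presents each peptide, in how well each antibody precipitates, or in how deeply each library was read. Early maturation is the phase in which the embryo ends its pattern formation and begins to lay down storage protein and oil. Soybean chromosomes carry most of their genes in the arms, while the large regions around the centromeres are rich in repeats.

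The Ab1 lists held 59261 and 44181 peaks in replicates 1 and 2, and the Ab2 lists 28010 and 21291. The median summit in the full lists held 26 and 35 fragments with Ab1 and 19 and 18 with Ab2, as recovered from the deposited fold enrichment and p. The median background at summits was 4.58 and 6 with Ab1, the latter on the scaled pile-up described below, and 2.80 and 2.67 with Ab2. Median fold enrichment was 4.69 and 4.31 with Ab1 and higher with Ab2, at 5.10 and 5.16. List length, summit height, background and fold thus moved with the antibody. Summit height is not the depth of a library, and read totals are not given in the sources used here. The part of depth in the lower background with Ab2 was not tested. When every list was reduced to its 21291 strongest peaks, 1163 Ab1-only regions were left in place of 11956. In Ab1 replicate 2 alone, the recovered pile-up came out whole only after division by a scale of 0.881, and its peak names hold the further tag "cat".

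The Ab1-only regions were weak to moderate peaks. Their fold enrichment over background, the authors' value at the summit, had a median of 4.36 in Ab1 replicate 1 (quartiles 3.74 and 5.12, range 2.01 to 9.51). In Ab1 replicate 2 it had a median of 3.79 (3.33 and 4.31, range 1.95 to 8.18). The middle of the class therefore lay close to a fold of 4 in both libraries, and the folds of 70.0% of the regions were higher in replicate 1. The median summit held 25 fragments in replicate 1, over a background of 4.66, and 30 fragments in replicate 2. The background in replicate 2 was 6 on the scaled pile-up. A mean fold of 5 or more over both replicates was reached by 1568 regions (13.1%) and one of 6 or more by 213 (1.78%). No Ab1-only region reached a mean fold of 8, whereas 29.5% of the shared regions did.

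The ranking of Ab1-only regions differed between the replicates. Across the 11956 regions the fold in replicate 1 and that in replicate 2 were related with Pearson's r of 0.214 and Spearman's rho of 0.192. The same values were 0.678 and 0.601 across the regions of all 4 libraries, and 0.259 and 0.228 across the 10132 regions found with both Ab1 and exactly 1 Ab2 library. These coefficients describe regions within the same 2 libraries, which are not independent replicates, and the part of the narrower fold range of the Ab1-only class in its lower coefficient was not tested.

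**Figure D1:**
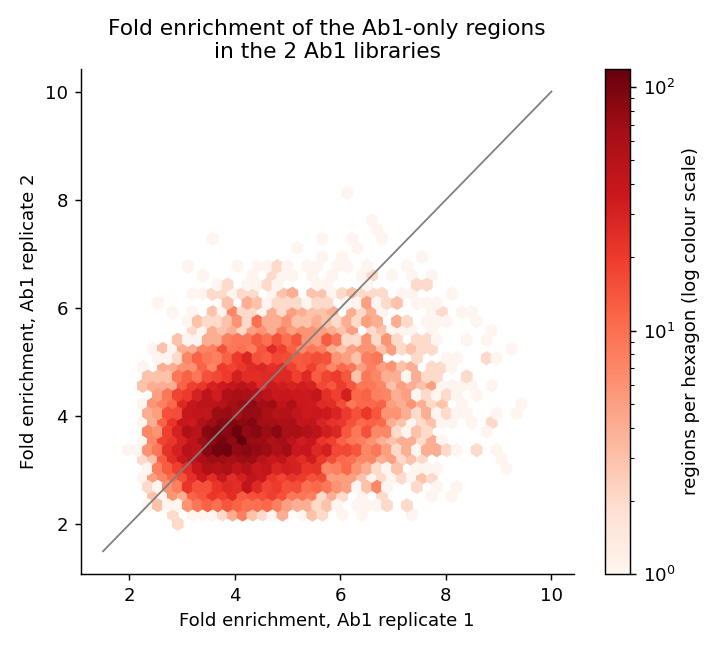
Fold enrichment of each Ab1-only region in Ab1 replicate 1 (x axis) and Ab1 replicate 2 (y axis), as the number of regions per hexagon on a log colour scale; the grey line marks equal values. The cloud is centred near 4.36 and 3.79 and has little slope, with r = 0.214 over 11956 regions.

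The Ab1-only regions with the best mean rank of fold over both replicates were picked for high folds in each, so their values are a description and no sign of agreement. The first lay on chromosome 2 from 42417109 to 42417567, with a fold of 8.12 in replicate 1 and 6.32 in replicate 2. Its summits held 45 and 43 fragments and lay 74 bp apart. The next was on chromosome 3 from 34422160 to 34422971, with folds of 7.77 and 6.52 and 46 and 50 fragments. The next after it, on chromosome 13 from 33279117 to 33279481, had folds of 7.57 and 6.89, and its summits were 18 bp apart. All 3 had a region of all 4 libraries as a near neighbour, at 3.02, 1.29 and 3.12 kb. The region beside the one on chromosome 3 was weaker in both Ab1 libraries than the Ab1-only region itself, with folds of 6.63 and 3.33 against 7.77 and 6.52. In the Ab2 libraries that neighbour had folds of 5.05 and 4.03, and the nearest Ab2 peak lay 1118 bp from the Ab1-only region. Positions follow the peak files, for which the sources used here name no genome build, and genes at these positions were not analysed.

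Ab1-only regions were short. Their median length was 371 bp (quartiles 302 and 474, range 198 to 1456), against 445 bp for regions with 1 Ab2 library and 602 bp for regions of all 4. Below 300 bp lay 23.9% of them (23.1 to 24.6) and 1.18% of the regions of all 4 libraries, and 1000 bp or more was reached by 0.611% and 14.2%. The whole class covered 4.89 Mb, compared with 10.7 Mb for the regions of all 4 libraries. Length is tied to the rule, as a longer interval has more chance to meet an Ab2 peak and the merged span of a shared region includes its Ab2 intervals. The Ab1 intervals alone gave the same order, at a median of 330 bp in replicate 1 and 248 bp in replicate 2 for Ab1-only regions and 564 and 454 bp for regions of all 4 libraries. Among regions with a mean fold from 4 to 5, the intervals of replicate 1 had a median of 343 bp in the Ab1-only class and 465 bp in the class of all 4 libraries. Fragments were not alike within that range of fold, with medians of 26 and 31 in the Ab1-only regions and 31 and 35 in the shared ones, and their part in the difference in length was not tested.

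Most Ab1-only regions were simple in structure. Exactly 1 peak of each Ab1 library made up 97.0% of them (96.7 to 97.3). The same held for 94.0% of regions with 1 Ab2 library and 90.1% of the regions of all 4 libraries. The part of length in this order was not tested. In 77.3% of the Ab1-only regions the interval of replicate 1 was the longer one, and in 43.6% it enclosed the interval of replicate 2. The reverse enclosure occurred in 6.99%. Each interval contained the summit of the other in 85.0% (84.3 to 85.6), against 92.0% for regions with 1 Ab2 library and 97.4% for the regions of all 4 libraries. Summits lay near the middle: both fell within the central 50% of the region in 75.3% of cases.

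The summits of the replicates lay close together, and this is tied to the rule. Only overlapping intervals were merged, and at the median the strongest Ab1 intervals overlapped over 100% of the shorter one. The distance between the strongest summits of the 2 Ab1 replicates had a median of 47 bp (quartiles 22 and 93), which is 13.1% of the region length at the median. It was at most 10 bp in 12.6% of regions, at most 50 bp in 52.4% (51.5 to 53.3), at most 100 bp in 77.8% and over 200 bp in 7.28%. The signed distance of replicate 2 from replicate 1 had a median of 0 bp, with quartiles of -48 and 47, so neither replicate lay to one side. Regions of all 4 libraries had a median distance of 33 bp and 66.4% (65.6 to 67.1) within 50 bp. Regions with 1 Ab2 library were intermediate, at 41 bp and 58.2%.

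**Figure D2:**
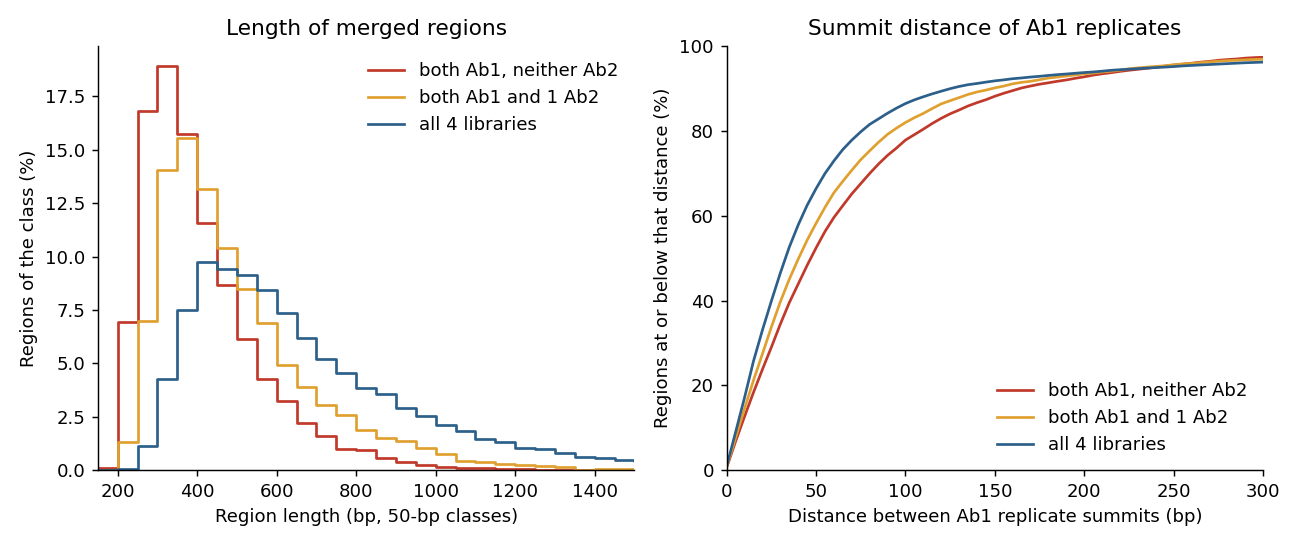
Left, share of regions of each class (y axis, %) by merged length in classes of 50 bp, with the axis ended at 1500 bp; right, cumulative share of regions (y axis, %) by distance between the Ab1 replicate summits (bp). Ab1-only regions are the shortest, with a median of 371 bp, and their summit curve runs below the others up to 200 bp, with 77.8% within 100 bp against 86.4% for shared regions.

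The wider summit spacing of the class went with its lower folds. When regions were compared at like mean Ab1 fold, the share of Ab1-only regions with close summits was no lower than that of the shared regions. From fold 3 to 4, the summits lay within 50 bp in 46.3% (44.9 to 47.6) of 5030 Ab1-only regions and in 41.9% (36.3 to 47.6) of 289 regions of all 4 libraries. From 4 to 5 these shares were 54.9% (53.5 to 56.2) and 52.2% (49.8 to 54.6). From 5 to 6 they were 64.4% (61.8 to 66.9) and 59.9% (58.2 to 61.6), and from 6 to 7 they were 77.0% (70.7 to 82.4) of 196 and 64.5% (62.9 to 66.2) of 3221. The counting intervals overlapped in the lower 2 of these classes and not in the upper 2. Regions with 1 Ab2 library had 64.6% (62.8 to 66.3) from fold 5 to 6 and 69.2% (66.4 to 71.9) from 6 to 7. Those intervals overlapped the ones of the Ab1-only class. In each of the fold classes from 3 to 7 the Ab1 intervals were shorter in Ab1-only than in shared regions. From 6 to 7 their medians were 402 bp in replicate 1 and 302.5 bp in replicate 2 against 546 and 430 bp. From 5 to 6 they were 378 and 284 bp against 500 and 390 bp, and from 3 to 4 they were 300 and 231 bp against 409 and 297 bp. The part of interval length in this result was not tested.

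With rising fold the share of Ab1 regions without an Ab2 peak fell. Of all regions with both Ab1 peaks, 84.9% had no Ab2 peak at a mean fold from 2 to 3, 72.2% from 3 to 4, 46.6% from 4 to 5, 18.2% from 5 to 6 and 4.37% from 6 to 7. Because peak calls made the rule, this fall is a description of it. In the Ab1-only regions of fold 6 to 7, summits held a median of 37 and 41 fragments in replicates 1 and 2. In the regions of all 4 libraries at that fold they held 41 and 46.

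**Figure D3:**
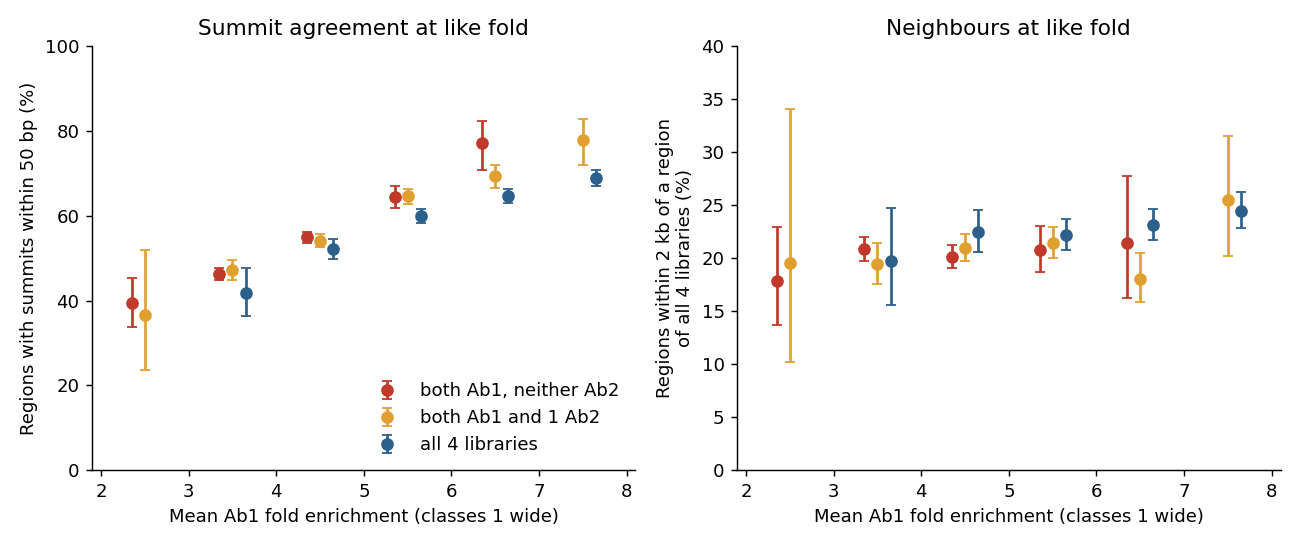
Regions in classes of mean Ab1 fold enrichment (x axis): left, share with replicate summits within 50 bp (y axis, %); right, share within 2 kb of another region found in all 4 libraries (y axis, %). Points are classes with at least 20 regions and bars are 95% Wilson intervals; summit agreement climbs with fold in each class of regions, and the neighbour shares of Ab1-only regions stay between 17.9 and 21.4%.

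A small number of Ab1-only regions had summits far apart. The largest distance was 876 bp, on chromosome 19 from 47933902 to 47935229, where the summit of replicate 1 was at 47934954 and that of replicate 2 at 47934078. The folds there were 3.54 and 3.93. A region on chromosome 8 from 6786049 to 6787304 followed at 856 bp, with 1 peak in replicate 1 and 3 in replicate 2. On chromosome 7, the region from 18395700 to 18397065 had summits 849 bp apart and was also among the 3 longest. The longest of all, 1456 bp on chromosome 2 from 42934282 to 42935737, had folds of 5.00 and 2.83 and summits 146 bp apart. That on chromosome 3 from 45066656 to 45068081 spanned 1426 bp with folds of 4.50 and 5.55. Of these 5 regions, 3 had more than 1 peak in replicate 2.

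Ab1-only regions lay nearer to regions of all 4 libraries than positions of the same megabases did. Distances were measured from the mean summit of the Ab1 replicates to the edge of the nearest region of all 4 libraries, for the 11893 Ab1-only regions on the 20 chromosomes. The median was 8.90 kb (quartiles 2.69 and 24.2 kb). Within 2 kb lay 2436 regions, 20.5% (19.8 to 21.2), called satellites here, whereas 10.9% of the bases outside shared regions in the same 1-Mb bins lay that close, a ratio of 1.88. That share of bases is exact, counted for the bin of each Ab1-only region and averaged, and involves no random draws. Mappability was not considered, and no test was made.

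The excess was short in range. Between 0.5 and 1 kb of a shared region lay 6.72% of the Ab1-only regions and 2.78% of the bases, a ratio of 2.41. The ratio was 1.76 between 1 and 2 kb, 1.24 between 2 and 5 kb and 1.01 between 5 and 10 kb. Beyond that, Ab1-only regions were scarcer than positions, with ratios of 0.854 from 10 to 20 kb, 0.818 from 20 to 50 kb and 0.658 past 50 kb. Inside 0.5 kb the ratio was 1.58, where the width of the regions themselves keeps their summits from the edge of a neighbour. It became 2.52 when only bases at least 185 bp from a shared region were counted. Bins of 200 kb gave a ratio within 2 kb of 1.77 and bins of 5 Mb one of 1.97.

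**Figure D4:**
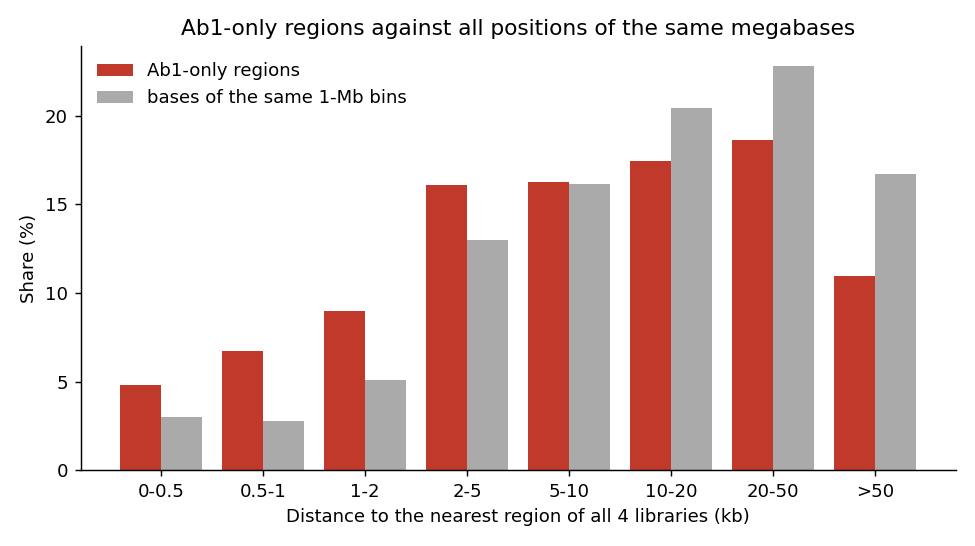
Share (y axis, %) of the 11893 Ab1-only regions (red) and of the bases outside shared regions in the same 1-Mb bins (grey) by distance to the nearest region of all 4 libraries (x axis, kb). Red bars exceed grey ones up to 5 kb, match at 5 to 10 kb and fall below them farther out.

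This closeness was not particular to the Ab1-only class. Regions with 1 Ab2 library had 20.7% (19.9 to 21.5) within 2 kb, against 10.96% of positions, a ratio of 1.89. Regions of all 4 libraries had another such region within 2 kb of their Ab1 summit in 23.7% of cases (23.1 to 24.4). No share of positions was computed for that class, so its value stands without a ratio. At like fold the shares of Ab1-only regions were 20.9% from fold 3 to 4, 20.1% from 4 to 5, 20.7% from 5 to 6 and 21.4% from 6 to 7, so nearness moved little with strength. Neighbours of any kind with an Ab2 peak, shared regions included, lay within 2 kb of 34.6% of Ab1-only regions and of 19.0% of positions. Another Ab1-only region lay within 2 kb of 15.7%, for which no share of positions was computed.

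Lone regions, more than 10 kb from a region of all 4 libraries, were the largest group with 5601 members, 47.1% (46.2 to 48.0), compared with 59.9% of positions. A further 3856 (32.4%) lay at 2 to 10 kb. Satellites and lone regions resembled each other as peaks. The median fold of satellites was 4.33 in replicate 1 and 3.78 in replicate 2, and that of lone regions 4.35 and 3.79. Their median lengths were 377 and 364 bp and their median summit distances 48 and 47 bp. Summits lay within 50 bp in 51.8% (49.8 to 53.7) of satellites and 53.1% (51.8 to 54.4) of lone regions. In both groups the median summit held 25 and 30 fragments in replicates 1 and 2, so distance to a shared region moved with none of these measures by more than a few percent.

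The shared regions that had a satellite were also ordinary. They numbered 2250, which is 14.6% of the shared regions on chromosomes. Their median length was 642 bp against 596 bp for the rest, and their median folds were 7.69 and 5.96 with Ab1 against 7.59 and 5.96. With Ab2 they were 5.93 and 5.51, and 5.92 and 5.51 for the rest. A single satellite occurred at 2075 of them, 2 at 164 and 3 at 11, and in 92 cases satellites stood on both sides. A satellite was weaker than its shared neighbour in both Ab1 libraries in 84.2% of cases. Lone regions were weaker than their nearest shared region in 83.3%, a share within 1 point of that of the satellites.

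The satellites nearest by summit lay 120 to 132 bp from the edge of a shared region. On chromosome 20, the region from 37738487 to 37738742 was separated by 26 bp from the shared region from 37738769 to 37739125. It had folds of 4.92 and 3.57, with summits 1 bp apart, and its neighbour 6.50 and 4.51 with Ab1 and 5.10 and 6.16 with Ab2. On chromosome 18, the region from 3134597 to 3134970 stood 27 bp from a shared region and had folds of 3.11 and 3.75. On chromosome 7, that from 32274731 to 32274956 stood 33 bp away with folds of 4.47 and 2.77. In each of the 3 pairs the satellite had lower folds than the neighbour in both Ab1 libraries. Measured between edges the smallest gap was 3 bp, on chromosome 15, where the region from 15595989 to 15596284 had its summit 185 bp from the shared region that starts at 15596288. Its folds were 3.71 and 3.25, and those of this neighbour 9.15 and 7.40 with Ab1.

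The most remote Ab1-only regions lay over a megabase from a shared region. The farthest, on chromosome 13 from 8015775 to 8016265, was 2091 kb from one. It had 49 and 52 fragments at its summits over backgrounds of 8.16 and 13.9, above the class medians of 4.66 and 6, and folds of 5.46 and 3.14. On chromosome 2, the region from 23864021 to 23864369 was 1965 kb away and had folds of 4.02 and 5.03. The one on chromosome 6 from 32961578 to 32961847 was 1532 kb away, with folds of 3.54 and 3.71 and summits 19 bp apart. Regions more than 50 kb away numbered 1307, and 39.8% of them lay in the outer 20% at either end of a chromosome, compared with 72.2% of satellites.

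Regions at the edge of the rule showed how it cuts. The smallest gap to an Ab2 peak was 3 bp, at the same region of chromosome 15 from 15595989 to 15596284. The next was 5 bp, on chromosome 7 from 15415628 to 15415901, with folds of 2.61 and 2.99. Just outside the rule, a region on chromosome 4 from 944961 to 945698, with Ab1 folds of 4.48 and 4.96, shared 10 bp with an Ab2 peak, and one on chromosome 20 from 40871519 to 40872583, with 5.69 and 3.25, shared 11 bp. An Ab2 peak lay within 100 bp of 85 Ab1-only regions and within 500 bp of 1338 (11.2%). Over all Ab1-only regions the lowest −log10 q was 2.02, in replicate 2, on chromosome 1 from 3579389 to 3579780. Its folds were 7.35 and 2.22, so the summit that passed narrowly was the one in replicate 2. The second at that value was on chromosome 1 from 39288785 to 39289214, with folds of 3.92 and 2.22. A −log10 q of 5 or more in both replicates was reached by 68.6% of the class.

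The chromosome profile of the Ab1-only regions followed that of the shared regions. All chromosomes together held 12.5 Ab1-only regions per Mb and 16.2 regions of all 4 libraries, or 0.773 of the former for each of the latter. Chromosome 13 was the densest with 840 Ab1-only regions, 18.3 per Mb, and 11 and 17 came next with 16.5 and 15.7 per Mb. The fewest per Mb, 9.17, were found on chromosome 14, which held 449, ahead of 18 with 9.25 and 1 with 10.0. The densities of the 2 classes were related across the 20 chromosomes with r of 0.970 and rho of 0.989, and both classes come from the same Ab1 libraries. A further 63 Ab1-only regions lay on 19 scaffolds.

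The ratio of the classes varied little. It was highest on chromosome 3 at 0.858 Ab1-only regions for each region of all 4 libraries, followed by chromosome 12 at 0.842 and chromosome 7 at 0.839. It was lowest on chromosome 11 at 0.720, chromosome 10 at 0.722 and chromosome 13 at 0.723, so the chromosomes densest in Ab1-only regions, 13 and 11, were among the 3 lowest here. As a share of all regions with both Ab1 peaks, the Ab1-only class ranged from 30.0% (28.0 to 32.1) on chromosome 11 to 34.1% (31.9 to 36.4) on chromosome 3. The intervals of these extremes, picked from 20 chromosomes, overlapped. Chromosome 4, which carries the studied gene by its identifier, held 560 Ab1-only regions at 10.7 per Mb.

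Along the chromosomes, Ab1-only regions were concentrated toward the ends. The outer 20% at either end held 70.2% (69.4 to 71.0), where an even spread gives 40%, and the regions of all 4 libraries had 70.5% (69.8 to 71.2) there. Of 10 equal parts, the outermost held 20.1 and 20.9%. The least filled was the sixth with 2.47% (2.21 to 2.77), against 2.10% (1.88 to 2.34) for the shared regions. In the seventh part the shares were 3.56% (3.24 to 3.90) and 3.03% (2.77 to 3.32). Chromosomes differed: on chromosome 4 the outer parts held 89.3% of the Ab1-only regions, and on chromosome 13 they held 36.7%. The shared regions of these chromosomes had 87.1 and 34.7% there.

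**Figure D5:**
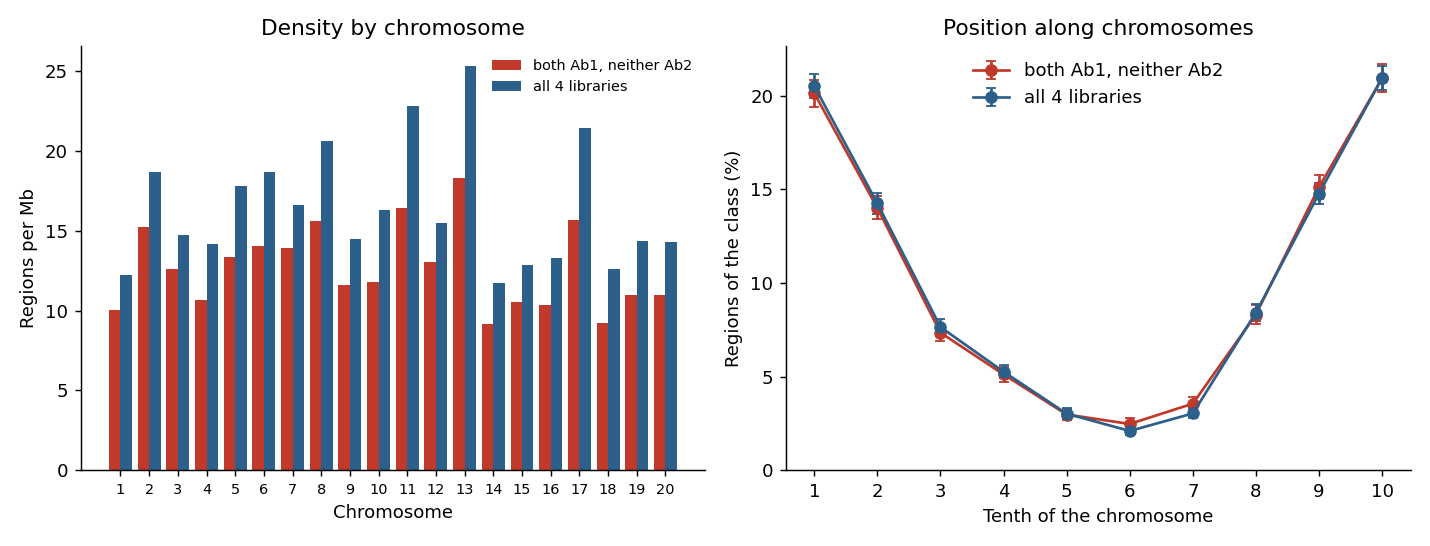
Left, regions per Mb (y axis) on each of the 20 chromosomes; right, share of regions (y axis, %) in 10 equal parts of the chromosomes, with 95% Wilson intervals. Ab1-only regions (red) follow the regions of all 4 libraries (blue) on every chromosome at a lower density, and both curves dip in the middle parts.

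Ab1-only regions of the interior were like those of the ends as peaks, with median folds of 4.36 and 3.81 against 4.35 and 3.78 and median lengths of 369 and 371 bp. Their distance to a region of all 4 libraries was larger, at a median of 12.5 kb against 7.98 kb. Satellites made up 19.1% (17.8 to 20.4) of the 3543 interior regions and 21.1% (20.2 to 22.0) of the 8350 outer ones. The bases within 2 kb were 7.55% and 12.4%, so the ratio to positions was 2.53 in the interior and 1.71 in the outer parts.

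By 1-Mb bin, the densest were chromosome 3 from 42 to 43 Mb with 45 Ab1-only and 35 shared regions, chromosome 6 from 3 to 4 Mb with 44 and 58, chromosome 11 from 2 to 3 Mb with 44 and 53, and chromosome 20 from 38 to 39 Mb with 44 and 38. The last 3 were tied on Ab1-only regions, and shared regions outnumbered them in the bins of chromosomes 6 and 11 but not in that of chromosome 20. The median over 956 bins was 7 Ab1-only regions, and 112 bins held none. Counts of the 2 classes were related over the bins with r of 0.921 and rho of 0.916, and both counts come from the same Ab1 libraries. Bins with Ab1-only regions but no region of all 4 libraries numbered 39 and held 62 Ab1-only regions in all. More Ab1-only than shared regions occurred in 232 bins and fewer in 569.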

How the data were processed

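Chromatin was sonicated to 100 to 500 bp, incubated with 2 ug of antibody, and its DNA was given 15 cycles of PCR, per the labels' protocols. Bowtie 0.12.7 and MACS2, with no version, are named in the submitters' processing notes. Each of 4 immunoprecipitated libraries had 1 deposited peak list; replicates were not pooled. Per peak, the authors' deposited fold enrichment (a ratio), −log10 p and −log10 q were used unchanged; the deposited integer score was not used. Coordinates are 1-based.

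Intervals sharing 1 base were merged. In each library the peak with the highest −log10 p gave the summit of a region. Fragments and background were recovered from fold, taken as pile-up plus 1 over background plus 1, and p, taken as an upper Poisson tail; pile-ups were whole within 0.01 for 100% of peaks, in Ab1 replicate 2 after division by 0.881. Chromosome ends were the last peak of any library. Python 3.11.15, numpy 2.4.6, pandas 2.3.3, scipy 1.17.1 and statsmodels 0.14.6 were used, and the scripts were tested on simulated data. No test was made, since the 2 replicates per antibody chose the regions. Wilson intervals cover counting error only; PCR copies are not independent molecules. Read totals are not given in the sources used here.

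The regions, classes and bounds were chosen with earlier results of these data known. Regions named were the 3 highest by mean rank of fold, the 3 longest, the 3 nearest and 3 farthest from a region of all 4 libraries, the 3 with the widest summits, the 3 densest bins with a tie for the last, the extreme chromosomes, and those at the edge of the rule. Alternatives were a −log10 q of 5, lists of 21291 peaks, summits within 150 bp, 50% reciprocal overlap, removal of high background, 1 list left out, and other bounds, bins and positions.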

Additional observations from a re-analysis of the deposited data

How the results depend on the processing

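Of 64 alternatives, 34 kept and 30 moved a result, and the ratio to positions stayed above 1 in all. The limits for keeping a result were unlike, so the tally is no single measure of stability. The number of regions was kept within 1.5 times of the main value. The median length was kept from 313 to 429 bp, 1 standard deviation of the median interval lengths of the 2 Ab1 replicates. The other results were kept inside their 95% counting intervals, which for the summit distance ran from 46 to 49 bp. The number of Ab1-only regions, 11956, became 1163 with lists of equal length, and 11145 to 13144 with the stricter q, summits within 150 bp or 50% reciprocal overlap. The stricter q was set on the lists of both antibodies, so regions could leave the class or enter it. Only 8204 of the 11956 had a −log10 q of 5 or more in both Ab1 libraries, so the 11145 regions were partly other ones. The median length of Ab1-only regions became 444 bp with equal lists. The median summit distance, 47 bp, became 43 bp with the stricter q, 32 bp with equal lists, 41 bp with summits within 150 bp and 44 bp with 50% overlap. The share within 2 kb, 20.5%, became 16.8, 16.6, 18.2 and 15.0% in the same order. Joining peaks by summits within 150 bp or by 50% reciprocal overlap leaves out pairs with distant summits or little overlap. Shorter summit distances are therefore built into both settings. Bounds of 1, 5 and 10 kb gave 11.5, 36.6 and 52.9%, and ratios to positions of 1.98, 1.53 and 1.32. That ratio, 1.88 within 2 kb, was 1.60 over all bases, 2.07 over bases at least 185 bp away, and 1.77 and 1.97 with bins of 200 kb and 5 Mb. The outermost 10% at either end held 41.1%. Leaving out 1 list gave 14878 to 30945 regions, the most without Ab1 replicate 2 and 19181 without Ab2 replicate 1, since 1 list then stood for its antibody. Lengths were then 235 to 397 bp, summit distances 45 to 46 bp, shares within 2 kb 20.04 to 28.4%, ratios 1.84 to 2.02 and outer shares 69.5 to 70.3%. No summit distance could be had without an Ab1 replicate. Peaks of high background, at least 10 times the median of their library, numbered 5 and 0 with Ab1 and 148 and 119 with Ab2. Removing them changed none of the results. The highest background at an Ab1-only summit was 26.9 in replicate 1 and 23 in replicate 2, so no such summit reached that limit. The closest pair of summits gave 47 bp. Apart from altered bounds, lists left out and summit distances under the 150 bp and 50% settings, the cause was not tested. Replicate numbers 1 and 2 are shared by both antibodies. No paired analysis was possible because no result comes from a test over samples and the rule needs both Ab1 replicates at once. Median summits of 18 to 35 fragments limit what can be said of weak sites.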
